A study of Canis lupus familiaris with 8 samples.

Results

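S100A12, CSF3R and PPBP were examined in skin biopsies from dogs with VKH (Vogt-Koyanagi-Harada syndrome), a dog with vitiligo and healthy dogs. The 3 genes were chosen by name. They are 3 of 160 canine genes on a NanoString probe panel made for the study, and 156 of the 160 were tested, the other 4 being housekeeping genes. NanoString counts single RNA molecules by a coloured barcode on each probe, without amplification. VKH and vitiligo are autoimmune disorders in which pigment cells are destroyed, and VKH also involves the eyes.

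VKH was represented by 2 male dogs, a Bernese Mountain Dog aged 2.5 years (VKH replicate 1) and a Husky aged 2 years (VKH replicate 2) by the sample labels. Vitiligo was represented by 1 neutered male Labrador cross labelled as 1 year old. The case descriptions in the study give older ages for the Husky and the Labrador cross, so these ages are uncertain. The 5 healthy dogs, 2 male and 3 female, were 6 to 12 years old. The cases were biopsied at the nose, whereas the healthy skin came from leg margins taken at amputation. All of the biopsies were archival and fixed in paraffin. Age, biopsy site and the amputation surgery of the healthy dogs therefore cannot be told apart from disease. With 1 vitiligo dog there is no measure of spread within vitiligo, and the fit assumes that this dog varied like the others.

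S100A12, also called calgranulin C, is a calcium-binding protein that neutrophils and monocytes store and release, where it acts as an alarm signal. In humans it is also made by keratinocytes of inflamed epidermis. CSF3R is the receptor for granulocyte colony-stimulating factor, which drives the formation and survival of neutrophils. PPBP, whose product is processed to the chemokine CXCL7, is stored in platelet granules and attracts neutrophils through the receptor CXCR2. No gene is exclusive to neutrophils among the 3, and PPBP is mainly a platelet product. In the annotation of the dog genome (RefSeq, UU_Cfam_GSD_1.0), S100A12 lies between S100A8 and S100A9, its fellow calgranulins, while the keratinocyte genes IVL and LORICRIN lie on another chromosome. PPBP lies near CXCL8, which encodes another chemokine that binds CXCR2.

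Panel totals of the VKH dogs were 742667 and 616576, that of the vitiligo dog was 421915, and healthy dogs had 209889 to 675018. Background, taken as the mean plus 2 SD of the 8 negative control probes of a dog, was 16.6 to 27.8 counts. Scaling used 4 housekeeping genes (HPRT, CCZ1, RPL13A and B2M) through their geometric mean, and values below are scaled counts unless called raw. B2M itself had 106779 to 130591 scaled counts in the cases and 25517 to 46475 in healthy dogs, so the scaling without it is given where it changes a call. Probes differ in efficiency, so counts of different genes were not set against each other as levels, and only the change of a ratio between dogs was compared. Sums over cell type markers, given at the end, add counts of different probes and are read only between dogs.

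S100A12 was higher and CSF3R lower in VKH skin than in healthy skin, so the genes most closely tied to neutrophils here did not move together. PPBP was higher in both VKH and vitiligo skin. By edgeR's quasi-likelihood test with Benjamini-Hochberg adjustment over 156 genes, S100A12 and PPBP were among the 31.4% of genes that were higher in VKH and CSF3R was among the 12.2% that were lower. In the vitiligo dog, PPBP was among the 21.8% of genes that were higher, and CSF3R was not among the 2.56% that were lower. When the 3 cases were tested together against the 5 healthy dogs, all 3 genes passed, beside 36.5% of genes that were higher and 14.1% that were lower. In bulk skin, fewer cells of a type and less RNA per cell cannot be told apart.

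**Figure D1:**
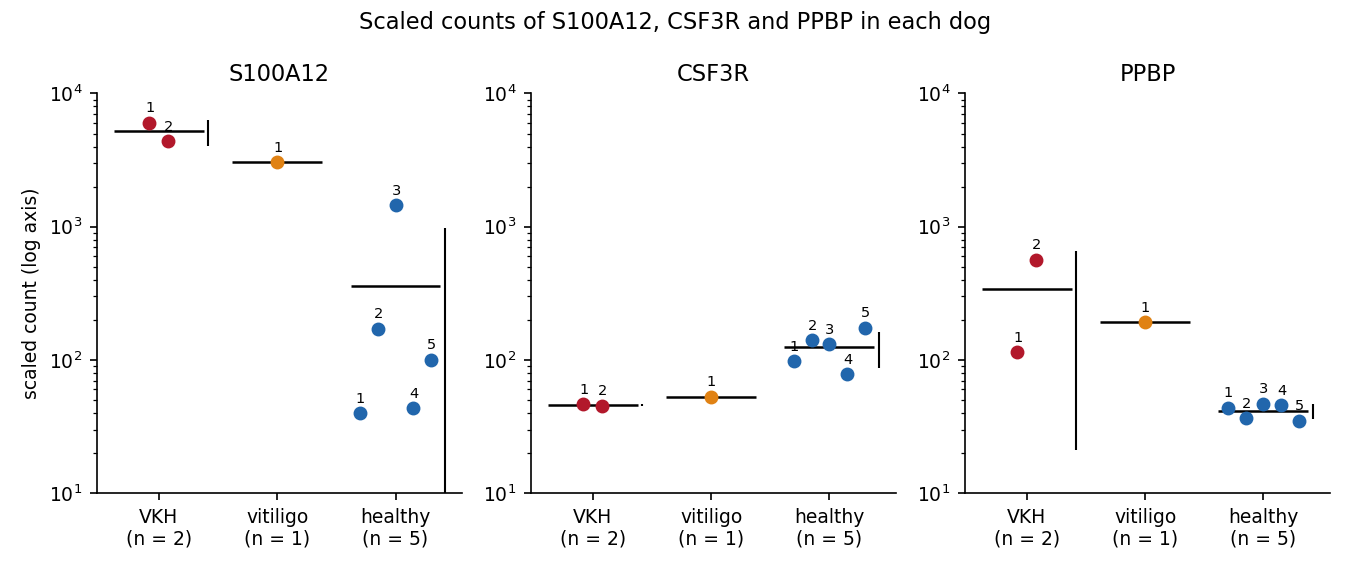
Scaled counts (log axis) of S100A12, CSF3R and PPBP in each of 2 VKH, 1 vitiligo and 5 healthy dogs, with points for dogs and bars for the mean ± SD where a group has more than 1 dog. S100A12 and PPBP of every case lay above every healthy dog and CSF3R of every case lay below every healthy dog, and the lower bar of healthy S100A12 runs off the axis because its SD exceeds its mean.

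S100A12 had 6032 and 4378 scaled counts in the VKH dogs. The vitiligo dog had 3052. The healthy dogs had 39.6, 172, 1451, 43.2 and 100.1. All 3 cases lay above all 5 healthy dogs, a pattern shared by 34.6% of the tested genes. Both VKH dogs alone lay above them for 36.5% and the vitiligo dog alone for 43.6%. The healthy dogs were themselves far apart. Healthy replicate 3 stood alone at 1451, and the highest healthy dog had 36.6 times the count of the lowest. In unscaled counts the vitiligo dog, at 2655, fell just under healthy replicate 3, at 2697, and it did so with positive-control scaling as well, while both VKH dogs stayed above every healthy dog. At the low end, healthy replicate 1 had a raw count of 28, only 1.01 times its background, and healthy replicate 4 had 38, or 1.55 times.

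The mean of S100A12 was 5205 ± 1170 in VKH dogs (SD, n = 2) and 361 ± 612 in healthy dogs (SD, n = 5). The healthy mean was 88.7 without healthy replicate 3. VKH skin differed from healthy skin by a log2 fold change of 3.84 (standard error 1.16, edgeR adjusted p = 0.0229), and by 5.87 (adjusted p = 0.000132) without healthy replicate 3. With either VKH dog left out, S100A12 did not pass the threshold, at 3.59 (edgeR adjusted p = 0.0839) without VKH replicate 1 and 4.06 (edgeR adjusted p = 0.0685) without VKH replicate 2. On log2 scaled counts, limma gave 5.25 (adjusted p = 0.00714).

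In the vitiligo dog the log2 fold change of S100A12 was 3.07 (standard error 1.35, edgeR adjusted p = 0.133), which did not pass. It did pass without healthy replicate 3, at 5.10 (edgeR adjusted p = 0.000421). For the 3 cases together S100A12 rose by a log2 fold change of 3.63 (standard error 1.06, edgeR adjusted p = 0.0161), and by 5.66 (adjusted p = 9.3e-05) without healthy replicate 3. The exact two-sided permutation test over dogs gave p = 0.0357 for 3 cases against 5 healthy dogs, the smallest p this design allows. VKH alone against healthy dogs gave p = 0.0952 by the same exact test, which is also the smallest possible with 2 against 5.

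CSF3R ran the other way and with less spread. It had 46.6 and 45.2 scaled counts in the VKH dogs. The vitiligo dog had 52.9. The healthy dogs had 97.7, 140.1, 131.8, 78.5 and 175.0. Every case lay below every healthy dog, a pattern shared by 10.9% of tested genes, while both VKH dogs alone lay below for 18.6% and the vitiligo dog alone for 17.3%. The closest pair was the vitiligo dog at 52.9 and healthy replicate 4 at 78.5. Raw counts were low. The VKH dogs had 69 and 36, the vitiligo dog 46 and the healthy dogs 69 to 245, which was 2.07 to 10.7 times background over the 8 dogs.

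The mean of CSF3R was 45.9 ± 0.98 in VKH dogs (SD, n = 2) and 125 ± 37.7 in healthy dogs (SD, n = 5). The log2 fold change was -1.44 in VKH (standard error 0.41, edgeR adjusted p = 0.0177). It was -1.24 in the vitiligo dog (standard error 0.54, edgeR adjusted p = 0.133), which did not pass. For the 3 cases together it was -1.37 (standard error 0.34, edgeR adjusted p = 0.00763), and the exact two-sided permutation p was 0.0357. The call in VKH depended on the scaling. CSF3R passed with the 4 housekeeping genes, the library total and TMM, but not without B2M, at -0.85 (edgeR adjusted p = 0.124), with the positive controls, at -0.84 (adjusted p = 0.615), or unscaled, at -1.37 (adjusted p = 0.138). It also did not pass without VKH replicate 1, at -1.46 (adjusted p = 0.0814), or without VKH replicate 2, at -1.42 (adjusted p = 0.0928), and the range of CSF3R overlapped between cases and healthy dogs when counts were unscaled or scaled by positive controls.

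Other scalings moved the median of all genes as well, so the fold changes were also read against that median. In VKH the median log2 fold change of the 156 genes was -0.0078 with the 4 housekeeping genes, 0.57 without B2M, 0.65 with positive controls and -0.87 with the library total. Relative to that median, CSF3R in VKH lay between -1.50 and -1.37 over 6 scalings. PPBP lay between 2.76 and 3.08 above it, and S100A12 between 2.86 and 4.02. A scaling factor shifts all genes of a dog alike, so a narrow range here follows from how the value is formed and does not bear on the calls lost above.

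**Figure D2:**
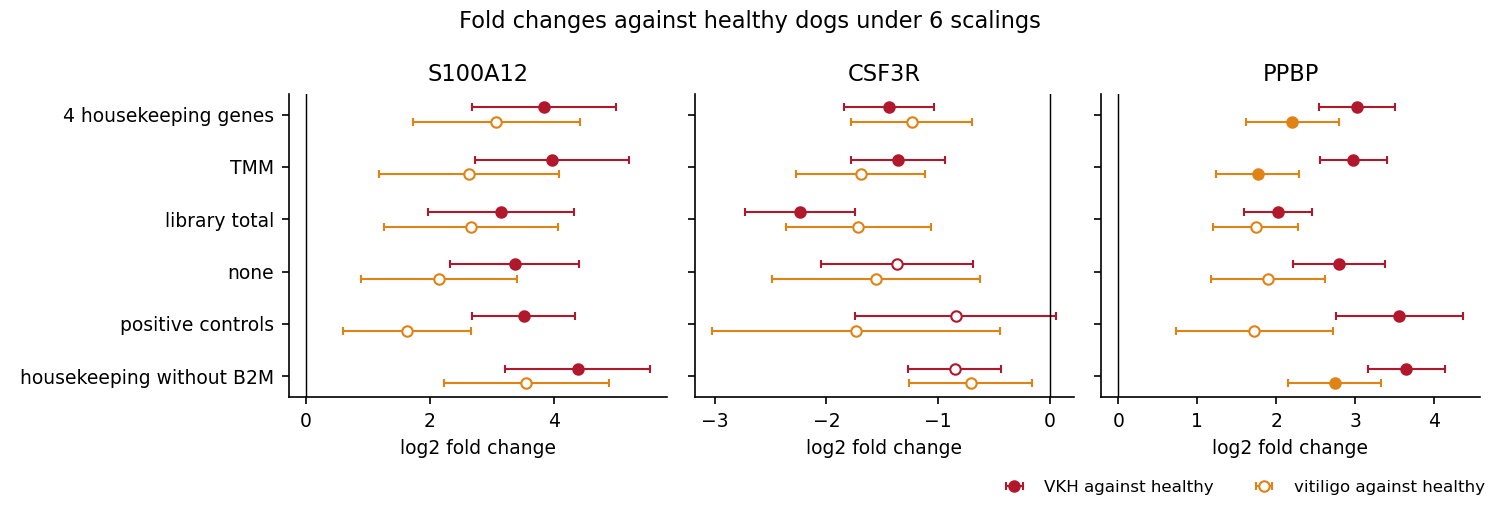
Log2 fold changes against healthy dogs (x axis) of S100A12, CSF3R and PPBP in VKH and in vitiligo under 6 scalings (y axis), with bars for the standard error and filled points for an edgeR adjusted p under 0.05. S100A12 and PPBP in VKH were filled in 6 of 6 scalings, CSF3R in VKH in 3 of 6, and every point of each gene lay on 1 side of zero.

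PPBP was low in every healthy dog and variable among the cases. It had 114.8 and 567.4 scaled counts in the VKH dogs. The vitiligo dog had 192.0. The healthy dogs had 43.9, 36.5, 46.8, 45.5 and 35.0. All 3 cases lay above all 5 healthy dogs, as for 34.6% of the tested genes, and VKH replicate 2 was far above both other cases while the vitiligo dog fell between the VKH dogs. The raw counts behind these were 170 and 452 for VKH, 167 for vitiligo and 30 to 87 for healthy dogs, where they were 1.11 to 3.81 times background.

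The mean of PPBP was 341 ± 320 in VKH dogs (SD, n = 2) and 41.6 ± 5.40 in healthy dogs (SD, n = 5). The log2 fold change was 3.03 in VKH (standard error 0.48, edgeR adjusted p = 0.000946) and 2.20 in the vitiligo dog (standard error 0.59, edgeR adjusted p = 0.0225). For the 3 cases together it was 2.80 (standard error 0.46, edgeR adjusted p = 0.000603), and the exact two-sided permutation p was 0.0357. Without VKH replicate 2 the log2 fold change in VKH was 1.46 (edgeR adjusted p = 0.0221), still past the threshold but less than the 3.77 measured without VKH replicate 1. In vitiligo PPBP passed in 3 of 6 scalings, and in VKH in 6 of 6.

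Differences between VKH and vitiligo were smaller than their errors for S100A12 and CSF3R and close to the error for PPBP. S100A12 was 0.77 higher in VKH than in vitiligo on the log2 scale (standard error 1.86, edgeR adjusted p = 0.950), CSF3R was -0.20 (standard error 0.56, adjusted p = 0.950) and PPBP was 0.82 (standard error 0.77, adjusted p = 0.949). None of the 3 passed, even at an unadjusted p under 0.05, by edgeR or limma, and neither CSF3R nor PPBP passed by DESeq2, which gave no adjusted p for S100A12. Over the panel, 0% of genes were higher and 0.641% lower in VKH than in vitiligo. With 2 dogs and 1 dog such errors leave room for several-fold differences. By mean scaled count the order of the groups was VKH, vitiligo and healthy for S100A12 and PPBP, and the reverse for CSF3R, with VKH and vitiligo not distinguishable in any of them. For PPBP the order rests on VKH replicate 2, without which the difference between VKH and vitiligo was -0.74 on the log2 scale. For CSF3R the sign of that difference turned in unscaled counts, with TMM, with positive controls and by DESeq2.

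The lists of related genes held few measured members. Of 18 neutrophil genes 2 were analysed here, S100A12 and CSF3R, and of these 1 was higher and 1 lower in VKH. Of 5 platelet genes 1 was analysed, PPBP. The receptors AGER and TLR4, which bind S100A12, were not analysed here. A neutrophil or platelet label for these samples therefore cannot be checked against other defining markers, and the genes are called by their own names.

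The other ligand of CXCR2 on the panel behaved unlike PPBP. CXCL8, interleukin 8, the principal neutrophil attractant of inflamed skin, had 324 and 331 scaled counts in the VKH dogs. The vitiligo dog had 268. The healthy dogs had 195, 4670, 3500, 396 and 3718. Healthy dogs thus fell into 3 at 3500 to 4670 and 2 near the cases. The log2 fold change of CXCL8 was -2.93 in VKH (standard error 1.17, edgeR adjusted p = 0.0661) and -3.02 for the 3 cases (edgeR adjusted p = 0.0214). The call for the cases was lost without any 1 of the cases (adjusted p = 0.0600 without VKH replicate 1, 0.0715 without VKH replicate 2 and 0.0663 without the vitiligo dog). In VKH the gene passed without healthy replicate 1 (adjusted p = 0.0180) or healthy replicate 4 (0.0285). These 3, healthy replicates 2, 3 and 5, were also the 3 highest healthy dogs for S100A12, although their S100A12 counts were 172, 1451 and 100.1.

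Among the 4 measured of 9 cytokines that recruit neutrophils or drive their formation, 1 was higher and 1 lower in VKH, close to the shares of 31.4% and 12.2% over the panel. TNF, tumour necrosis factor, had 151 and 190 scaled counts in VKH, 101 in vitiligo and 38.7 to 67.1 among healthy dogs, and rose in VKH by 1.71 on the log2 scale (edgeR adjusted p = 0.00229). With library-total scaling this was 0.85 (adjusted p = 0.0875). IL6, which supports neutrophil production, fell by 4.53 on the log2 scale (edgeR adjusted p = 0.00362). IL1B was at -0.97 (adjusted p = 0.171) and IL17A, which drives G-CSF in epithelium, at -0.33 (adjusted p = 0.720) with at most 11.3 scaled counts in any dog. The median of the 4 was -0.65, against -0.0078 for all genes tested.

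**Figure D3:**
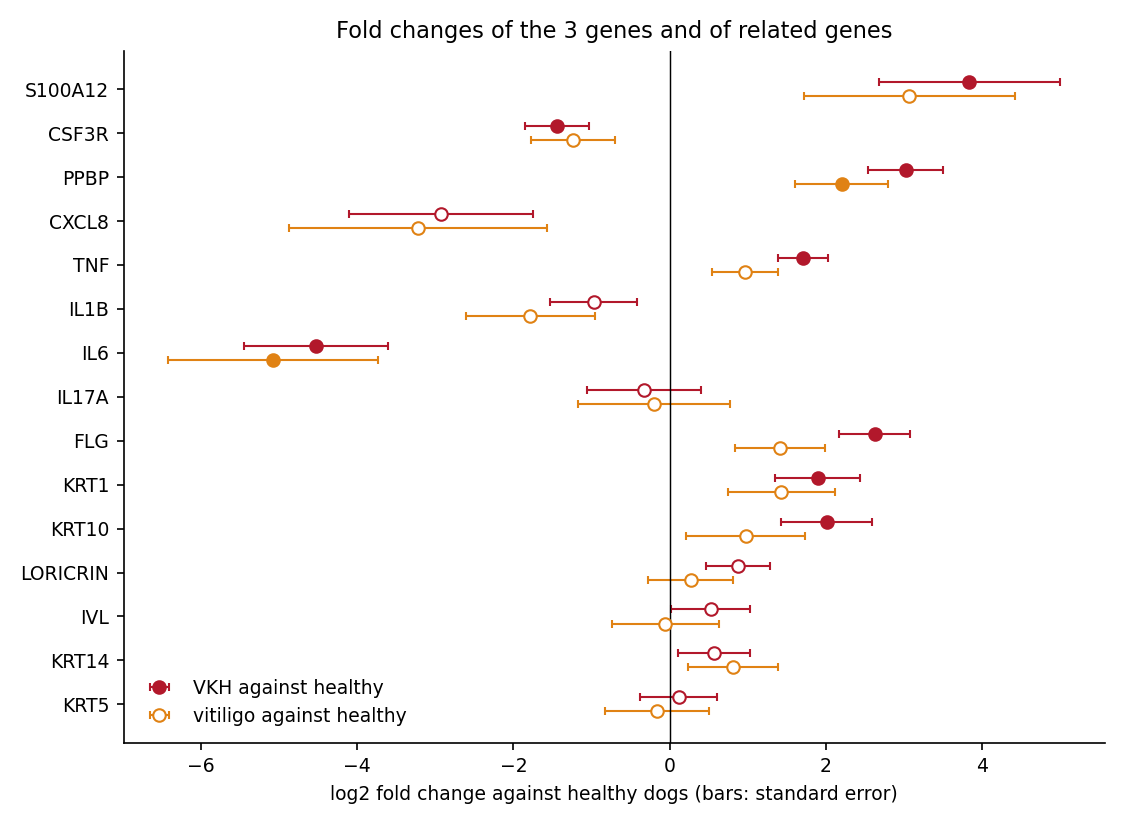
Log2 fold changes against healthy dogs (x axis) of the 3 genes, of measured cytokines and CXCL8, and of 7 keratinocyte genes (y axis), with bars for the standard error and filled points for an edgeR adjusted p under 0.05. S100A12 and PPBP stood to the right at 3.84 and 3.03 in VKH, CSF3R, CXCL8 and IL6 to the left, and FLG, KRT1 and KRT10 were the filled keratinocyte genes.

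The keratinocyte genes were then set beside S100A12. Genes of epidermal differentiation, which encode the scaffold of the outer skin, were measured for 5 of 5 list members, and 3 were higher in VKH, where 31.4% of all tested genes were, with a median log2 fold change of 1.90 against -0.0078 for all genes. FLG, filaggrin, had 20595 and 31577 scaled counts in VKH, 11255 in vitiligo and 2078 to 6153 among healthy dogs, with a log2 fold change in VKH of 2.63 (edgeR adjusted p = 0.00139). KRT1 and KRT10, paired keratins of the suprabasal layers, were at 1.90 (adjusted p = 0.0179) and 2.01 (adjusted p = 0.0190). LORICRIN and IVL, proteins of the cornified envelope, were at 0.88 (adjusted p = 0.105) and 0.53 (adjusted p = 0.403). The calls of the keratins were lost with 1 dog left out, KRT1 without VKH replicate 1 (adjusted p = 0.0505) or VKH replicate 2 (0.12) and KRT10 without VKH replicate 2 (0.206). The basal keratins KRT5 and KRT14, 2 of 6 in their list, were at 0.12 (adjusted p = 0.847) and 0.57 (adjusted p = 0.321), and both were negative with library-total scaling.

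The ratio of S100A12 to each gene within a dog does not depend on the scaling. Its difference between groups is the change of S100A12 less the change of the other gene. On raw counts plus 1, the log2 ratio of S100A12 to CSF3R was 6.996 and 6.56 in the VKH dogs. The vitiligo dog had 5.82. The healthy dogs had -1.27, 0.29, 3.46, -0.84 and -0.80. The cases lay far above the healthy dogs, with healthy replicate 3 between them. The difference of means was 6.29 between the 3 cases and 5 healthy dogs, and 7.11 without healthy replicate 3. The exact two-sided permutation test gave p = 0.0357, the smallest that 3 cases against 5 healthy dogs allow. After Benjamini-Hochberg adjustment over the 8 ratios tested it was 0.0571, which did not pass. That adjusted value depends on how many of the other ratios reached the smallest p, and not on the size of this difference.

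The ratio to FLG moved less. Its log2 value was -1.77 and -2.85 in the VKH dogs. The vitiligo dog had -1.88. The healthy dogs had -5.66, -4.40, -2.06, -6.18 and -5.93. Healthy replicate 3 lay among the cases, and the other 4 lay below them. The difference between cases and healthy dogs was 2.68 (exact permutation p = 0.0714, adjusted p = 0.0714).

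Over the 7 keratinocyte genes the difference in log2 ratio was 2.68 for FLG, 3.07 for KRT1, 3.23 for KRT10, 4.25 for KRT14, 4.32 for LORICRIN, 4.48 for IVL and 4.87 for KRT5, against 6.29 for CSF3R. All of these were positive, so S100A12 was raised in the cases relative to every keratinocyte gene too. The ratios to LORICRIN, IVL, KRT5 and KRT14 did not overlap between groups (exact permutation p = 0.0357 each, adjusted p = 0.0571), while those to FLG, KRT1 and KRT10 did (p = 0.0714 each by the same exact test). None of the 8 passed after adjustment, and with these dogs none could unless more of the ratios had reached the smallest p. The 8 ratios share S100A12, so they are not independent measurements. Their order largely restates the change of each other gene in the 3 cases, from a log2 fold change of 2.32 for FLG to -1.37 for CSF3R by edgeR. It is not separate evidence on which genes S100A12 follows.

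**Figure D4:**
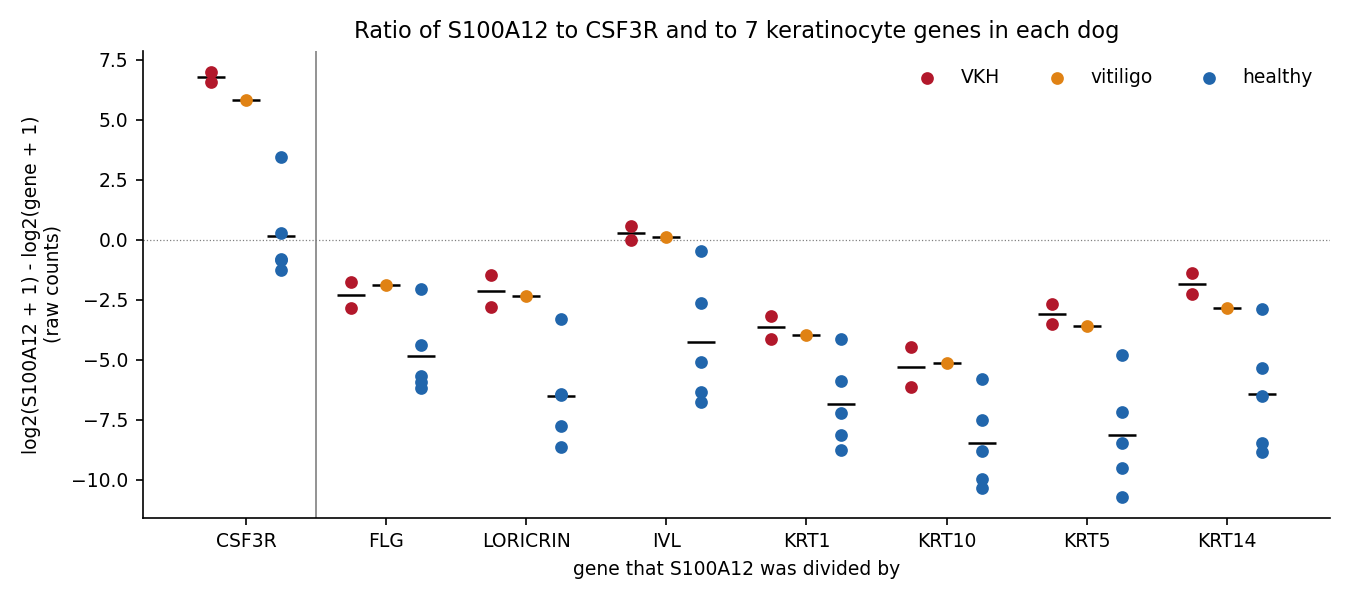
Log2 ratio of raw counts (plus 1) of S100A12 to CSF3R and to 7 keratinocyte genes (x axis) in each VKH, vitiligo and healthy dog, with a line for each group mean. The ratio to CSF3R separated cases at 5.82 to 6.996 and healthy dogs at -1.27 to 3.46, whereas those to FLG, KRT1 and KRT10 overlapped through healthy replicate 3.

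Likeness was measured as the SD over dogs of the log2 ratio between a gene and S100A12, so that a steadier ratio is more alike, among the 137 genes with a mean raw count of at least 20. Over the 8 dogs, the 5 genes most like S100A12 were CXCL13 (1.72), CCL5 (1.78), CD8A (1.79), IL21R (1.79) and CXCL10 (1.80), chemokines and lymphocyte genes. Healthy dogs had low scaled counts of them, 11.4 to 32.6 for CXCL13, 18.5 to 31.7 for IL21R and 38.9 to 59.4 for CD8A. CXCL10 had 28.3 to 106 and CCL5 30.1 to 122 there. The filter took the mean over all 8 dogs, so genes this low in healthy dogs could pass through the cases. FLG ranked 10th of the 137 at 1.92, KRT1 15th at 2.14, PPBP 18th at 2.18 and KRT10 22nd at 2.24. CSF3R ranked 113th at 3.58, behind all 7 keratinocyte genes, of which IVL was the least alike at 3.08 and rank 75. A gene with the same scaled count in every dog would be near 3.05, the SD of log2 scaled S100A12 itself. KRT5 (3.06) and IVL were thus no steadier against S100A12 than such a gene. The ranking is a description over 8 dogs that fall into cases and healthy dogs. Genes that rose in the cases therefore come first, and genes that fell there, such as CSF3R, come late.

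Within the 5 healthy dogs alone, none of the 5 genes above stayed among the 5 most alike. The 5 there were CCL20 (1.44), CCL7 (1.55), IL1B (1.62), CCL23 (1.62) and CXCL8 (1.65), chemokines and a cytokine. FLG ranked 7th at 1.70, KRT1 15th at 1.85, KRT10 17th at 1.87 and CSF3R 22nd at 1.93. The other 4 keratinocyte genes came after CSF3R there, LORICRIN at rank 35 (2.02), KRT5 at 88 (2.28), KRT14 at 119 (2.44) and IVL at 129 (2.67). CSF3R thus ranked behind all 7 keratinocyte genes over 8 dogs but behind only FLG, KRT1 and KRT10 over healthy dogs. S100A12 was highest in healthy replicate 3, then 2, 5, 4 and 1, whereas CSF3R was highest in 5, then 2, 3, 1 and 4. FLG was highest in 5, then 3, 2, 4 and 1. The SD of log2 scaled S100A12 was 2.10 over healthy dogs and 3.05 over all 8, against 0.45 and 0.76 for CSF3R and 0.19 and 1.43 for PPBP. These SDs set how far a ratio can be steady at all. Over healthy dogs KRT5, KRT14 and IVL had ratio SDs above the 2.10 of S100A12 itself, so they were no steadier than an unchanging gene.

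**Figure D5:**
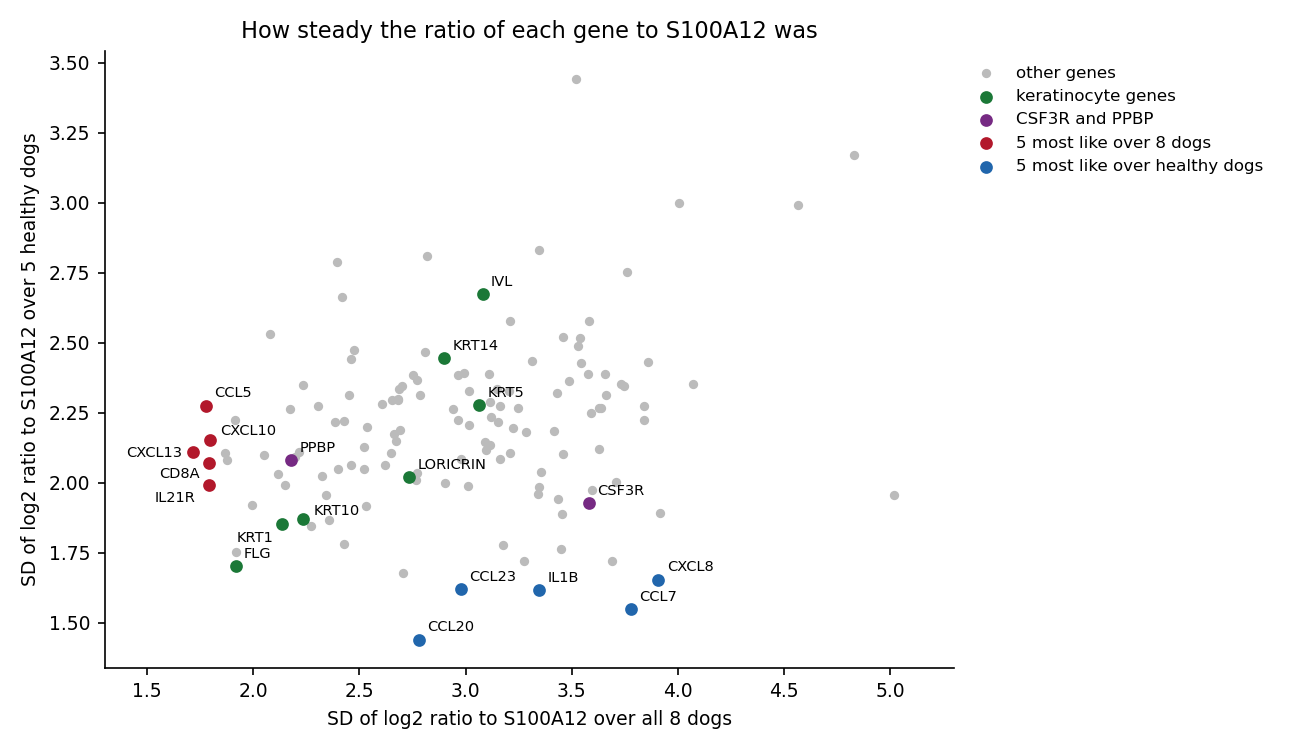
SD of the log2 ratio of each gene to S100A12 over all 8 dogs (x axis) against that over the 5 healthy dogs (y axis), for 137 genes, where a lower value is a steadier ratio. CXCL13, CCL5, CD8A, IL21R and CXCL10 lay farthest left at 1.72 to 1.80, FLG was at 1.92 and 1.70, and CSF3R was at 3.58 over 8 dogs but at 1.93 over healthy dogs, below LORICRIN, KRT5, KRT14 and IVL there.

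Other genes were most like CSF3R and PPBP. The 5 genes most like CSF3R over 8 dogs were PECAM1 (0.38), an endothelial adhesion molecule, CYP1B1 (0.38), CXCL12 (0.44), FOXO1 (0.45) and VGLL3 (0.47). In all 5, as in CSF3R, every case lay below every healthy dog, a pattern shared by 10.9% of tested genes. Over healthy dogs alone they ranked 12, 1, 35, 22 and 38 of 137, so the likeness over 8 dogs need not reflect a shared cell type. PECAM1 had 1628 and 1457 scaled counts in VKH, 2339 in vitiligo and 2770 to 7084 among healthy dogs. For PPBP the 5 most alike over 8 dogs were the lymphocyte genes TRAT1 (0.49), CD6 (0.56), TBX21 (0.57), FOXP3 (0.57) and IL21R (0.59). Without VKH replicate 2, none of these 5 stayed among the 5 most like PPBP. The count filter used the mean over all 8 dogs, so a gene low in healthy dogs could pass through the cases. TRAT1 had only 4.25 to 9.75 scaled counts among healthy dogs and FOXP3 3.65 to 14.2. TBX21 had 12.7 to 33.4 there, IL21R 18.5 to 31.7 and CD6 27.4 to 48.1. PPBP itself was 1.11 to 3.81 times background there. In all 5 genes, as in PPBP, every case lay above every healthy dog, a pattern shared by 34.6% of tested genes. The part of this rise and of the low healthy counts in the likeness was not tested.

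Markers of some other cell types differed between the disease groups and healthy dogs, while others overlapped. The 7 keratinocyte markers summed to 283513 to 523016 scaled counts in VKH, 242922 in vitiligo and 88566 to 188441 among healthy dogs. KRT10 alone had 134052 and 308741 in the VKH dogs, 107820 in vitiligo and 18561 to 79992 among healthy dogs. A sum thus leans toward the genes with the most counts. LORICRIN, IVL, KRT5 and KRT14 each overlapped between cases and healthy dogs. Of the 7 markers 3 were higher in VKH, against 31.4% of all tested genes. For T cells, 4 of 7 markers were measured and all 4 were higher in VKH and in vitiligo, against 31.4% and 21.8% of tested genes, with sums of 1048 to 1283 in VKH, 1013 in vitiligo and 122 to 208 among healthy dogs. For macrophages, 2 of 8 markers were measured, and 1 of them, CD84, was higher in VKH, against 31.4% of tested genes. The other, CD163, was at -1.30 on the log2 scale in VKH (edgeR adjusted p = 0.0770). The macrophage sums were 841 to 959 in VKH, 1005 in vitiligo and 602 to 2515 among healthy dogs. For B cells, 4 of 6 were measured, and 4 were higher in VKH and 2 in vitiligo, against 31.4% and 21.8% of tested genes. The B cell sums were 233 to 413 in VKH, 493.2 in vitiligo and 92.4 to 132 among healthy dogs. For mast cells, 4 of 5 were measured, and 1 was lower in VKH, against 12.2% of tested genes. The mast cell sums were 664 to 700.1 in VKH, 993 in vitiligo and 928 to 1267 among healthy dogs. The sums overlapped for melanocytes, with 3 of 5 markers measured and 114 to 281 in VKH, 446 in vitiligo and 69.4 to 688 among healthy dogs. They also overlapped for dendritic cells, with 685 to 869 in VKH, 969 in vitiligo and 536 to 1291 among healthy dogs. Of the 4 dendritic cell markers measured 1 was lower in VKH, against 12.2% of tested genes. The single endothelial marker measured was PECAM1, which was lower in VKH (edgeR adjusted p = 0.0178). The part of these cell types in the values of S100A12, CSF3R and PPBP was not tested.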

How the data were processed

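The authors deposited 1 table of raw NanoString counts per probe for 2 VKH dogs, 1 vitiligo dog and 5 healthy dogs, with 6 positive and 8 negative controls. They are whole numbers of barcodes, which need no genome alignment. Per the methods, nSolver was used, whose version is not given in the sources used here. VKH was compared with healthy dogs by analysis of variance with Bonferroni post tests on sets of genes, then by t tests. A count test replaced them. Probes were mapped to genes through 72 accessions, 75 symbols and 4 names assigned by hand, 9 names were kept as given, and the sequences of the probes were not used.

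The geometric mean of the housekeeping genes (HPRT, CCZ1, RPL13A and B2M) was given to edgeR 4.0.16 in R 4.3.3 as the library size (quasi-likelihood test, legacy fit, no filter on low counts). The fit held all 8 dogs in 3 groups, and a second fit held 3 cases and 5 healthy dogs. Benjamini-Hochberg adjustment ran over 156 genes, with a threshold of 0.05. A standard error is the fold change divided by the square root of its F statistic. A scaled count is the raw count over the housekeeping mean of its dog, brought back to the average level. Exact permutation tests over dogs were two-sided. P-values measure only the spread between these dogs. The procedure was tested on simulated data.

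The genes named are the 3 genes, the measured members of the lists named in the text, and the 5 genes most like each of the 3. For S100A12 the 5 most alike over healthy dogs were also named. The 3 genes, the lists and the tests were chosen with earlier results of these data known. Alternatives were no scaling, scaling without B2M, by the library total, by TMM or by positive controls, a low-count filter (20 counts or more in 2 dogs or more), a floor of 20 counts, DESeq2 1.42.0, limma 3.58.1 on log2 of the scaled count plus 1, leaving out each dog, healthy controls restricted to males, and the replicate number as a block. Ratios and likeness, which used a pseudocount of 1, were recomputed with a pseudocount of 10 and with the floor. Ratios alone were also recomputed with background subtracted.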

Additional observations from a re-analysis of the deposited data

Results flagged for a closer look

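S100A12 in healthy replicate 3 lay far from the other healthy dogs. The gap between this dog, at 1451 scaled counts, and the next healthy dog, at 172, was 0.906 of the range of the 5 healthy dogs, past the limit of Dixon's test. Of 11 groups of values examined this way it was the single one past the limit, and for each group chance gives about 1 in 20. The test used scaled counts for the 3 genes but log2 values for the 8 ratios. On the log2 scale S100A12 was 5.34, 7.43, 10.5, 5.47 and 6.66 in the healthy dogs. The gap was not tested on that scale, so the flag holds for scaled counts only. CSF3R and PPBP in healthy replicate 3, at 131.8 and 46.8 scaled counts, did not stand apart. This dog also had the highest panel total of the healthy dogs, 675018 counts, and the part of that in the value was not tested.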

How the results depend on the processing

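S100A12, CSF3R and PPBP kept their sign against healthy dogs, in VKH, vitiligo and the 3 cases, under every alternative run. The ratio results kept their direction under every alternative run, and their p-values say nothing of stability with 1 dog left out, since the smallest exact p is then 0.0571 for 3 cases against 4 healthy dogs and 0.0952 for 2 cases against 5. PPBP passed in VKH and in the 3 cases under every alternative, and S100A12 in the 3 cases too. In VKH, CSF3R no longer passed unscaled (-1.37), without B2M (-0.85), with positive controls (-0.84), with male healthy dogs only (-1.25) or with the replicate block (-1.35). Its log2 fold changes ran between -1.57 and -1.29 with 1 dog left out, and those of S100A12 between 3.55 and 5.87. In the 3 cases, CSF3R no longer passed unscaled (-1.43), without B2M (-0.80), with positive controls (-1.09), with male healthy dogs only (-1.18) or with the replicate block (-1.26). In vitiligo, S100A12 passed with male healthy dogs only (4.83) and with the replicate block (5.43), and ran between 2.78 and 5.10 with 1 dog left out. Neither setting is separate from leaving out healthy replicate 3. That dog is female, and the numbers 3, 4 and 5 occur only in healthy dogs, so the block takes these out of the comparison. CSF3R passed in vitiligo by DESeq2 (-1.70). PPBP no longer passed there unscaled (1.90), with the library total (1.74), positive controls (1.72), limma (2.19) or male healthy dogs only (2.22). DESeq2 gave no adjusted p for S100A12 in VKH, in vitiligo or between them. Between VKH and vitiligo, the sign of CSF3R turned unscaled (0.19), with TMM (0.34), with positive controls (0.89) and by DESeq2 (0.043). That of PPBP turned with the replicate block (-0.029) and ran between -0.74 and 1.56 with 1 dog left out, and was negative without VKH replicate 2. None of these differences passed. The causes were not tested.

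Counts of genes past the threshold moved too. In VKH they were 68 in the fit reported, 39 unscaled, 41 with positive controls, 42 with the replicate block and 39 to 70 with 1 dog left out. In vitiligo they were 38, against 20 unscaled, 9 with positive controls, 25 with male healthy dogs only and 24 with the replicate block. For the 3 cases they were 79, against 50 unscaled, 43 with positive controls and 37 with the replicate block. Between VKH and vitiligo the count was 1, against 2 with the library total, 0 with positive controls, 4 by DESeq2 and 2 with the low-count filter. The split into higher and lower genes in VKH was 49 and 19, but 23 and 59 with the library total, 63 and 6 without B2M, 39 and 2 with positive controls, 35 and 4 unscaled and 49 and 46 by DESeq2. Of the 5 genes most like S100A12, 0 stayed over healthy dogs only and 2 to 5 with 1 dog left out. For CSF3R it was 3 with a pseudocount of 10, 1 over healthy dogs only and 3 to 5 with 1 dog left out. For PPBP it was 3 with the floor, 0 over healthy dogs only and 0 to 5 with 1 dog left out. The replicate numbers only name dogs, and the deviations of VKH and healthy dogs with the same number correlated over genes at -0.076 and -0.126.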
